A study of Mus musculus with 19 samples.

Results

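Among the thymocytes profiled here, 4992 of 79569 cells (6.27%) carried an interferon-response transcript signature. A cell was counted as an interferon-responding thymocyte when it had at least 1 RNA molecule of Isg15 and at least 1 of Ifit1 or Ifit3, had none of the B cell gene Cd79a or of the myeloid and NK cell gene Tyrobp, and passed the RNA filters of at most 15% mitochondrial molecules and at least 200 genes. Molecules were counted as unique molecular identifiers (UMIs). The 3 interferon-stimulated genes, Cd79a and Tyrobp therefore describe how the cells were chosen and were not tested.

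Type I interferons signal through the receptor pair IFNAR1 and IFNAR2 and type II interferon through IFNGR1 and IFNGR2. Janus kinases bound to these receptors (JAK1 and TYK2 at the type I receptor, JAK1 and JAK2 at the type II receptor) activate transcription factors of the STAT family. For type I interferon, STAT2 and IRF9 belong to a complex that binds interferon-stimulated response elements in target promoters. Among the target genes are antiviral effectors, RNA and DNA sensors, the machinery of MHC class I presentation, the receptors' own signaling factors and feedback inhibitors. In the thymus, epithelial cells and dendritic cells are known sources of interferon in the absence of infection, and medullary single-positive (SP) thymocytes are known to respond to it.

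RNA and 111 surface proteins were measured together by CITE-seq, in which DNA-tagged antibodies are read with the transcripts of each cell, on thymus cells of 17 mice aged 4 to 8 weeks in 19 droplet lanes. Of the mice with restricted lineage choice, 2 each were AND and OT-II, whose transgenic T cell receptor (TCR) recognizes MHC class II, and MHCI-/-, which lack B2m (6 CD4-fated mice). Another 2 each were F5 and OT-I, whose transgenic TCR recognizes MHC class I, and MHCII-/-, which lack H2-Ab1 (6 CD8-fated mice). The remaining 5 mice were wild-type C57BL/6 (WT). AND and F5 mice were Rag1-/-, whereas the OT-I and OT-II mice kept their Rag genes. WT mice 1 to 3, MHCI-/- and MHCII-/- cells had been sorted as CD5+TCRβ+, and WT mice 4 and 5, each on 2 lanes, and all TCR transgenic mice were not sorted. A mouse is the replicate in every test below.

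The lanes held 9893333 to 43303999 RNA UMIs, and the median cell of a lane had 1517 to 7062. B2m stood at 48.7 and 48.3 CPM (UMI counts scaled to a common library total) in the 2 MHCI-/- mice and at 407 to 1288 CPM in all others, while H2-Ab1 was as low in sorted WT mice (5.70 to 24.2 CPM) as in MHCII-/- mice (9.10 and 9.08 CPM) and so did not check that label. In all, 874 of 78660 barcodes occurred in more than 1 lane, including 5 of the 4987 barcodes of interferon-responding cells. Scores against simulated doublets marked 328 of these cells (6.57%) and 4.00% of all cells.

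The members were deeper than other cells, with a median of 6173 RNA UMIs against 3892. The median member had 3 Isg15 UMIs (range 1 to 86), 2 Ifit1 UMIs (highest 64) and no Ifit3 UMI (highest 34). ISG15 is a ubiquitin-like protein that is attached to other proteins during the interferon response, and IFIT1 and IFIT3 belong to a family of interferon-induced proteins. Both Ifit genes were seen in 1449 members (29.0%), Ifit1 alone in 3107 (62.2%) and Ifit3 alone in 436 (8.73%). Although the members held 8.35% of all RNA UMIs, they held 58.5% of the Isg15, 82.1% of the Ifit1 and 80.8% of the Ifit3 UMIs, which the rule itself fixes in part. A further 179 cells met the Isg15 and Ifit condition but had Cd79a (65 cells) or Tyrobp (118 cells) and were left out.

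Promoter sequence around the transcription start of the 3 genes is shown because it carries the element named above. The motif searched was GAAANNGAAA on both strands (its reverse complement is TTTCNNTTTC), overlapping matches were joined, and capitals mark the matching bases. Each window is read 5′ to 3′ on the strand of the gene from RefSeq sequence of GRCm38.p6, between 250 bases before and 50 bases after the start. Coordinates here and below are those of the whole printed stretch. In Isg15, 3 overlapping matches began 78 bases before the start, within chr4:156200871-156200900 (minus strand). In Ifit1 (plus strand) single matches lay within chr19:34640775-34640804 and chr19:34640794-34640823, and in Ifit3 (plus strand) within chr19:34583363-34583392 and chr19:34583397-34583426.
Isg15: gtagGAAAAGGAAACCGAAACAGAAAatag
Ifit1, first: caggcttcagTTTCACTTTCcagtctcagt
Ifit1, second: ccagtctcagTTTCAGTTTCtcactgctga
Ifit3, first: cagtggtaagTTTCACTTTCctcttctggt
Ifit3, second: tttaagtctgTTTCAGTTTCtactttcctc
Ifit3b, a neighboring copy of Ifit3, had the same letters as both Ifit3 windows at chr19:34607759-34607788 and chr19:34607793-34607822. Whether transcript reads of these copies can be told apart was not tested, so their levels are uncertain. Of all 27025 genes with a promoter window, 3.99% had a match. A match describes these letters and is not a measured binding site.

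Cells just inside and just outside the rule differed in degree. Across 39 other interferon effector genes, which were not part of the rule, the median member had 41 UMIs from 14 of the genes. The 705 members with exactly 1 Isg15 and 1 Ifit UMI (14.1% of members) had a median of 28 effector UMIs. Just outside, cells with Isg15 but no Ifit UMI (9629 cells) had a median of 15, those with an Ifit but no Isg15 UMI (2388 cells) had 20, and those with none of the 3 genes (60809 cells) had 5. Because deeper cells enter the rule more readily, effector levels were also expressed per 10000 RNA UMIs and within SP-like cells, as plotted by distance from the rule. On that scale the median was 63.7 in members (quartiles 45.0 to 89.1), 47.9 in members at the boundary, 33.2 in cells with Isg15 alone and 24.0 in cells with none of the 3. These medians pool mice and SP-like classes in unequal parts. Within single mice with at least 10 cells of each kind, the 4 medians kept this order in 6 of 8 mice for mature SP-like cells, 5 of 6 for CD8 SP-like cells and 1 of 2 for CD4 SP-like cells, and members stood above cells with none of the 3 in all of them. The groups overlapped widely on this scale, and whether the members form a separate population was not tested.

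**Figure D1:**
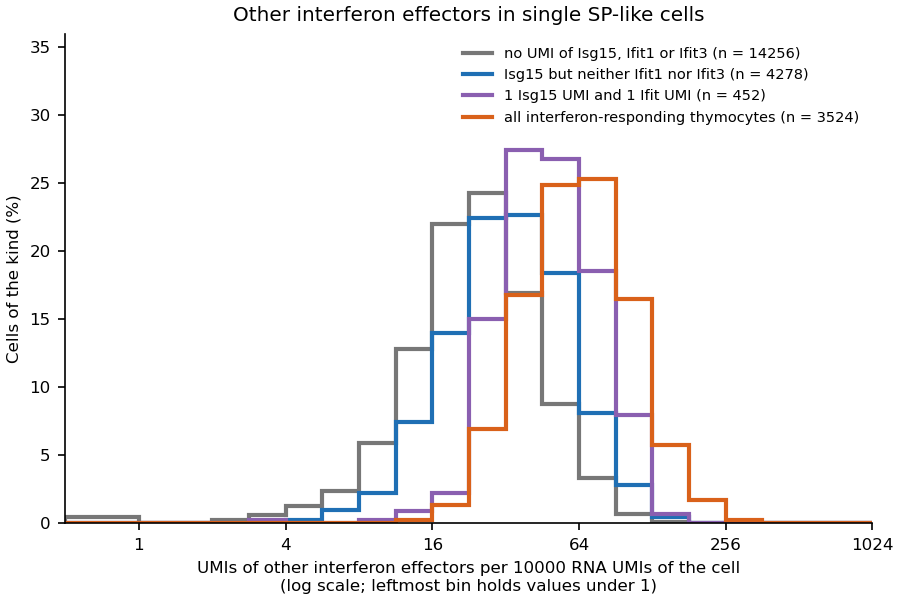
Histogram of UMIs of 39 other interferon effector genes per 10000 RNA UMIs (log axis) in SP-like cells, as percent of the cells of each line. The lines are cells with none of the 3 rule genes (14256 cells), cells with Isg15 but no Ifit UMI (4278), members with 1 Isg15 and 1 Ifit UMI (452) and all members (3524), and their medians rise from 24.0 through 33.2 and 47.9 to 63.7 with wide overlap.

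To ask whether cells picked by 3 genes carried the wider response in every mouse, members were set against stage-matched cells: up to 5 non-member cells per member from the same lane and the same RNA cluster with a total RNA count within 1.25-fold. Clusters were built without interferon-stimulated genes. Matches were found for 4934 members, with 16378 comparators. Within this tolerance members stayed deeper at the median in most mice, for example 9992 against 8686 UMIs in MHCII-/- mouse 2. F5 mouse 1 had 2 members and was left out of these tests, and the 16 other mice had at least 10. At least 3 UMIs of other effectors were seen in 99.8% of members and 95.2% of stage-matched cells, a mean difference of 4.61 ± 5.43 percentage points (SD, n = 16 mice) with members higher in 16 of 16 mice (exact two-sided sign-flip permutation test, p = 3.05e-05, the smallest the design allows, and 9.16e-05 adjusted over 3 tests). The comparators were therefore not free of interferon-stimulated transcripts, and their Isg15 level ran from 12.2 to 88.4 CPM (median 69.2) against 468 to 1038 CPM (median 720) in members. Because members were chosen on genes of the same response, the direction of the difference in other effectors was fixed in part.

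Members and comparators had similar levels of T cell transcripts, as the matching within clusters fixes in part. Summed T cell identity genes (such as Cd3e, Cd3d, Trac and Lck) had a median level of 11651 CPM in members and 12248 CPM in stage-matched cells over the 16 mice, and was higher in members of 4 of them. For markers of other cells, the ranges of the summed levels overlapped between members and comparators. The rule left out cells with Cd79a or Tyrobp from both, which lowers B cell, myeloid and NK cell content in part. B cell markers ran from 106 to 448 CPM in members (median 178) and from 105 to 351 CPM in comparators (median 183). Pax5 had 0 UMIs in members and 3 in comparators. Myeloid and dendritic markers ran from 64.7 to 191 CPM against 93.2 to 145 CPM (higher in members of 9 of 16 mice), and plasmacytoid dendritic markers had medians of 19.6 and 19.1 CPM, with 0 UMIs of Siglech in members and 2 in comparators and none of Klk1 in either. NK and innate markers had medians of 126 and 122 CPM and highest values of 983 and 540 CPM, with Ncr1 at 0 in both. Stromal markers had medians of 88.1 and 80.5 CPM. Erythroid markers had medians of 0.760 and 0.309 CPM, with members higher in 4 of 16 mice and the highest mouse at 11998 CPM in members and 15041 CPM in comparators.

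Interferon-responding cells lay mainly among the late stages of thymocyte development. Clusters were named from fixed markers, and classes carry the suffix "-like" because no deposited annotation was used. Mature SP-like cells, marked by genes such as S1pr1, Klf2, Ccr7 and Il7r, contributed 1664 members (33.3%) and CD8 SP-like cells 1446 (29.0%). By mouse of origin, the mature SP-like class held 6351 cells of CD4-fated, 2545 of WT and 423 of CD8-fated mice. These class counts therefore do not divide the members into CD4 and CD8 lineages. Treg-like cells, marked by Foxp3 and Ctla4, contributed 518 (10.4%), CD4 SP-like cells 414 (8.29%) and cycling-like cells 265 (5.31%). Another 191 members (3.83%) were in clusters without a name, 5 in myeloid-like and 4 in erythroid-like clusters.

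Pooled over mice, 22.95% of Treg-like, 17.9% of mature SP-like, 14.4% of CD8 SP-like and 9.38% of CD4 SP-like cells were members. These pooled shares depend on which mice supply each class, and within mice the order of the first pair turned, with the mature SP-like share above the Treg-like one in 6 of the 7 mice with at least 50 cells of both. In contrast, the share was 2.10% of signaled double-positive (DP)-like cells, which express Egr2, Cd69 and Itm2a after TCR engagement. It was 0.199% of quiescent DP-like cells, which express Rag1 and Rag2. The signaled DP-like class was cluster 12 alone, and the CD4 SP marker Cd40lg was also among its 10 leading genes. The unnamed clusters 3, 9 and 10 came closest to the signaled DP markers but were not part of the class. Free RNA in droplets can give stray UMIs to any class, and its level was not measured here. The quiescent DP-like share came at a median depth of 2287 UMIs. Mature SP-like cells had a median depth of 4612 UMIs, and gamma-delta T-like cells, at 5264 UMIs, had 1.98% members.

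Depth was then equalized by taking the expected share of cells that would meet the rule after drawing 1000 UMIs from each cell. The thinned share of mature SP-like cells ran from 1.45% to 11.7% over 13 mice with at least 50 such cells (median 5.66%), and that of Treg-like cells from 2.22% to 10.7% over 9 mice (median 5.28%). CD8 SP-like cells had a median of 3.67% (14 mice), CD4 SP-like cells 2.02% (13 mice) and NKT-like cells 1.95% (8 mice). The neighbors in this order overlapped widely between mice.

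Negative selection-like cells, marked by genes such as Nr4a1, had a median of 1.63% over 13 mice. This class joined cluster 11 (2744 cells, median 0.0596%) and cluster 22 (1349 cells, median 3.54%). Nr4a1 was among the 10 leading genes of both clusters and Pdcd1 only among those of cluster 11. Of the 196 members of the class, 186 lay in cluster 22. With another random seed its median was 3.49%, above the 1.72% of CD4 SP-like and the 1.94% of NKT-like cells under that seed. Cycling-like cells had a median of 0.338%, and 193 of their 265 members lay in cluster 26 (1086 of the 7448 cells), where the median was 2.35% against 0.0126%, 0.00385% and 0.00748% in clusters 15, 16 and 21. Double-negative (DN)-like cells also had a median of 0.338%, signaled DP-like cells 0.329%, gamma-delta T-like cells 0.272% and quiescent DP-like cells 0.0554%.

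**Figure D2:**
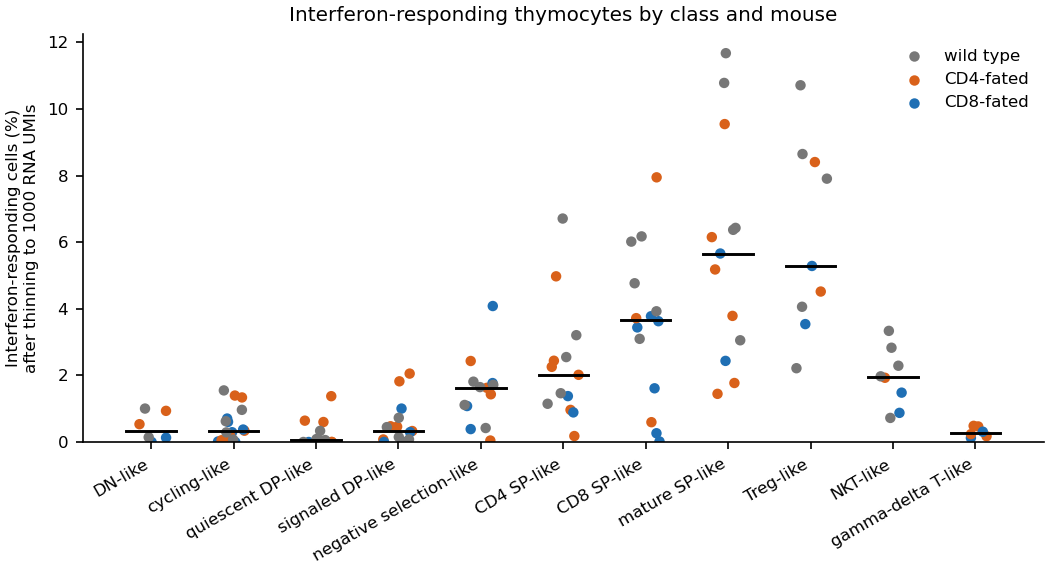
Percent of cells meeting the rule after thinning to 1000 RNA UMIs, by cell class and mouse (grey WT, orange CD4-fated, blue CD8-fated; bar, median over mice; mice with at least 50 cells of a class). Mature SP-like and Treg-like cells have medians of 5.66% and 5.28%, and signaled DP-like and quiescent DP-like cells 0.329% and 0.0554%.

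Within a mouse, the thinned share was 5.71% in mature SP-like cells and 0.608% in signaled DP-like cells on average, a difference of 5.11 ± 3.28 percentage points (SD, n = 13 mice). It was higher in mature SP-like cells in 13 of 13 mice with at least 50 cells of both classes (exact two-sided sign-flip permutation test, p = 0.000244, the smallest possible here, and 0.000366 adjusted over 3 tests). Both F5 and both MHCII-/- mice had at most 10 mature SP-like cells and did not enter. OT-I mice were therefore the only mice of CD8-fated genotype tested. Per the study's methods, some cells of TCR transgenic mice that keep their Rag genes develop along the other lineage. The lineage of the mature SP-like cells in OT-I mice was not tested. Mature SP-like cells were 70.4% of CD4-fated but 4.93% of CD8-fated SP-like cells. CD8 SP-like cells were not part of this test. The smallest mature share was in AND mouse 2, with 1.45% against 0.0754%, and the largest in WT mouse 4, with 11.7% against 0.446%. Thinning left out the 24 of 9319 mature SP-like and 13 of 2710 signaled DP-like cells with fewer than 1000 UMIs.

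The level of the response also differed between classes, in members and in cells with none of the 3 rule genes alike. Other effectors summed to a median over mice of 85.2 per 10000 UMIs in Treg-like members (9 mice) and 80.2 in mature SP-like members (13 mice, range 65.8 to 96.5). Negative selection-like members had 67.1 (6 mice) and signaled DP-like members 63.5 (2 mice, at 40.4 and 86.5). CD8 SP-like members had 62.3, NKT-like 56.6, CD4 SP-like 54.8 and cycling-like 50.7. In cells without a UMI of the 3 genes the same genes stood at 40.4 in Treg-like, 40.5 in mature SP-like, 25.7 in CD8 SP-like, 20.95 in CD4 SP-like and 18.7 in NKT-like cells. Negative selection-like cells had 19.2, signaled DP-like cells 14.9, quiescent DP-like cells 11.1 and cycling-like cells 7.66. These values are descriptions, since the members were chosen on genes of the same response.

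The share of members per mouse, at the depth of each cell, was higher in sorted than in unsorted WT mice. It was 12.5% to 14.4% in the 3 sorted WT mice and 4.14% and 1.34% in the 2 unsorted WT mice, and the 2 lanes of a WT mouse gave 4.37% and 4.03% or 1.49% and 1.17%. MHCI-/- mice had 13.7% and 13.1% and MHCII-/- mice 8.48% and 10.6%, both sorted. OT-I mice had 9.70% and 3.53%, OT-II mice 3.91% and 3.12%, AND mice 4.04% and 2.71%, and F5 mice 0.0756% and 0.596%. The sort removes early cells, so these shares of all cells cannot be told apart from the makeup of each sample. Sorted and unsorted WT mice also came from different experiments and differed in depth. Among SP-like cells thinned to 1000 UMIs, the shares were 8.04%, 4.78% and 5.17% in sorted and 6.72% and 2.53% in unsorted WT mice.

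Among SP-like cells together (CD4, CD8 and mature SP-like), the thinned share was compared between lineages. It was 1.56% and 1.16% in AND, 8.06% and 4.92% in MHCI-/- and 3.94% and 3.68% in OT-II mice. In F5 mice it was 0.0158% and 0.262%, in MHCII-/- mice 3.59% and 3.74%, and in OT-I mice 3.33% and 1.65%. The ranges of the lineages overlapped, with means of 3.89 ± 2.51% (SD, n = 6 CD4-fated mice) and 2.10 ± 1.69% (SD, n = 6 CD8-fated mice), a difference of 1.79 percentage points (exact two-sided permutation test, p = 0.177, smallest possible p 0.00216, adjusted p 0.177). Of the SP-like cells, 15 of 9024 CD4-fated and 5 of 8582 CD8-fated ones had fewer than 1000 UMIs and were left out. Without thinning, the difference was 2.38 percentage points (exact permutation p = 0.628). By experiment the means were 1.56% against 0.0158% in the first (1 mouse each), 4.71% against 2.53% in the second (3 each) and 3.81% against 2.49% in the third (2 each), so the CD4-fated mean was the higher one in each. With lineage labels permuted only within experiments, a test added after seeing the data, the exact two-sided permutation p was 0.167 (240 arrangements). This permutation did not use the lane numbers that divide the mice of the third experiment.

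The difference was 0.809 percentage points without the F5 mice and 0.515 with class names from another seed. Different clusters made up the SP-like cells of each lineage. CD4-fated SP-like cells were 70.4% mature SP-like (clusters 1 and 5) and 26.2% CD4 SP-like (clusters 6 and 28), whereas CD8-fated ones were 88.9% CD8 SP-like (clusters 4, 7 and 19). Cluster 19 held 1968 cells of CD8-fated, 75 of CD4-fated and 7 of WT mice, and was 22.9% of CD8-fated SP-like cells. It was named on 1 marker, Runx3, among its 10 leading genes. Its median thinned share was 1.25% (4 mice), against 4.68% in cluster 4 and 2.67% in cluster 7 (10 mice each).

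The transcripts of members were then compared with those of stage-matched cells within each mouse by summing UMIs per mouse and testing with edgeR's quasi-likelihood test. Of 9530 genes tested, 985 (10.3%) were higher and 1066 (11.2%) were lower in members at an adjusted p under 0.05, with a median log2 fold change of -0.01 over all genes. Levels below are CPM over the 16 mice, given as lowest, median and highest. Gene lists are described by their counts beside these backgrounds. Because members were chosen on 3 genes of the same response, the size of each interferon-related difference describes the cells chosen.

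Few transcripts of the interferons themselves were seen. The 10 listed type I and type III interferon genes had 6 UMIs in all 79569 cells and none in members. Ifng, the type II interferon, had 101 UMIs in 63 cells, of which 18 UMIs were in members, and had 29 UMIs in the more numerous stage-matched cells. No interferon gene passed the low-count filter for a test. Cells that were not captured in the droplets were not measured.

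Receptor transcripts changed little, with 3 of 5 tested receptor genes higher and 1 lower. Ifnar1, a chain of the type I receptor, was at 16.3, 61.7 and 82.8 CPM in members and 25.3, 50.4 and 62.9 CPM in comparators. The groups overlapped, and the log2 fold change was 0.24 ± 0.04 (SE), higher in members of 14 of 16 mice. Ifnar2, its partner, rose by 0.19 ± 0.05 on the log2 scale, higher in 10 mice. The change of Il10rb, the chain shared by the IL-10 and type III interferon receptors, was 0.19 ± 0.07, and that of Ifngr1, the ligand-binding chain for interferon gamma, was -0.13 ± 0.04. Both of the last calls were lost with DESeq2. Ifnlr1, the specific chain of the type III receptor, had 47 UMIs in all cells and none in members.

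Of 8 signaling factors, 7 rose and none fell, with a median log2 fold change of 0.98, and the kinase gene Tyk2 was not called. Irf7, the factor that amplifies type I interferon transcription, was at 101, 170 and 328 CPM in members and 3.01, 37.1 and 84.4 CPM in comparators. No mouse of one group reached the other group's range, and the log2 fold change was 1.99 ± 0.06 (adjusted p = 3.28e-26). Such complete separation was seen for 34 of the 9530 genes (0.357%). Stat2, a partner of Irf9, without overlap, rose by 1.27 ± 0.06, and Irf9 by 1.01 ± 0.06 on the log2 scale.

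All 38 tested effectors of 42 listed rose, with a median log2 fold change of 1.75, and for 16 of them the groups did not overlap. Oas1g, Mx2, Ifi44 and Ifi44l were not tested, being too low or absent from the deposited genes. The deposited genes included 41 of the 42 listed effectors. The GTPase family gene Mx1 was at 8.82, 17.4 and 49.7 CPM in members and 0, 0.789 and 2.75 CPM in comparators. Rsad2 encodes viperin, which makes a chain-terminating nucleotide, and was at 26.5, 63.0 and 268 CPM against 0.603, 2.39 and 19.999 CPM. Neither gene's ranges overlapped, and the log2 fold changes were 4.19 ± 0.15 for Mx1 (adjusted p = 1.73e-23) and 4.13 ± 0.14 for Rsad2 (adjusted p = 4.05e-24). Cmpk2, the neighbor of Rsad2 that supplies its nucleotide substrate, was at 12.2, 22.7 and 41.4 CPM against 0.899, 2.42 and 4.75 CPM and rose by 3.14 ± 0.11. Ifit3b rose by 4.17 ± 0.14, but may share reads with the rule gene Ifit3.

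**Figure D3:**
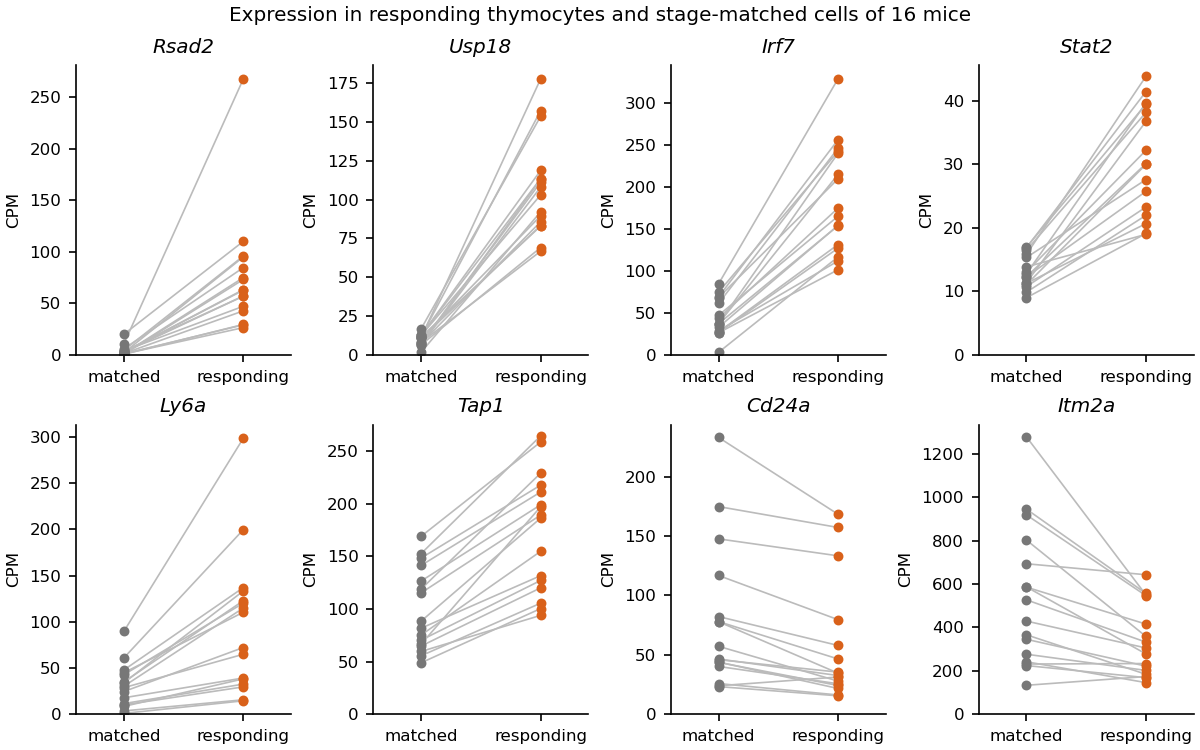
Level in CPM (linear axis from 0) of 8 genes in members and in stage-matched cells of the same mouse, with a line joining the 2 values of each of 16 mice. Rsad2, Usp18, Irf7 and Stat2 separate without overlap, Ly6a and Tap1 rise in 16 of 16 mice with overlapping ranges, and Cd24a and Itm2a are lower in members of 15 and 14 mice.

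Among the effectors with a promoter window, 13 of 32 (40.6%) had a match of the motif, against 3.99% of all genes. The window of Rsad2 (chr12:26456553-26456582, minus strand) is shown for a gene outside the rule with among the largest changes, with the motif in capitals.
Rsad2: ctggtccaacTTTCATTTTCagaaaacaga
Among the signaling factors 1 of 7 genes had a match, in Stat2 (chr10:128270266-128270295, plus strand), and Irf7 and Irf9 had none.
Stat2: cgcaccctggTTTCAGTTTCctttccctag
Cmpk2 had no match in its window although it rose with Rsad2, which says only that these letters are absent from that window.

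Of 4 feedback genes, 2 rose. Usp18, which removes ISG15 from proteins and blocks signaling at IFNAR2, was at 66.8, 106 and 178 CPM in members and 1.81, 10.6 and 16.9 CPM in comparators. The ranges were far apart, with a log2 fold change of 3.33 ± 0.08 (adjusted p = 1.59e-29). Socs1, an inhibitor of JAK kinases, was at 65.0, 120 and 177 CPM against 50.1, 89.5 and 153 CPM. It was higher in members of 15 of 16 mice, and its log2 fold change was 0.21 ± 0.05. Socs3 and Sh2b3 were not called. Socs1 had 2 overlapping matches of the motif at chr16:10785597-10785626 (minus strand), shown because it is the weakly changed gene of the group with this element.
Socs1: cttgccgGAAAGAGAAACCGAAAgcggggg

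Sensors of viral nucleic acid rose in 10 of 13 tested cases, with a median log2 fold change of 1.43. Dhx58 encodes LGP2, a regulator of RNA sensing, and was at 33.1, 48.4 and 73.5 CPM in members and 2.41, 9.10 and 16.6 CPM in comparators. Ifih1 encodes the long double-stranded RNA sensor MDA5 and was at 27.4, 51.9 and 85.5 CPM against 4.85, 11.2 and 18.0 CPM. Both were free of overlap, with log2 fold changes of 2.20 ± 0.09 and 2.06 ± 0.10. The HIN-200 family genes Pydc4 and Gm4955, relatives of DNA sensors, both rose by 1.77 on the log2 scale (SE 0.07 and 0.06), with the caution that members of this family are similar in sequence. The DNA sensors Mb21d1 (cGAS) and Aim2 and the adaptor Mavs were not called.

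Genes that respond strongly to interferon gamma rose as well, in 13 of 13 tested cases with a median log2 fold change of 1.60. Iigp1, an immunity-related GTPase, was at 5.21, 59.7 and 204 CPM in members and 0, 8.19 and 26.9 CPM in comparators. Its ranges overlapped, with members higher in 16 of 16 mice (log2 fold change 2.74 ± 0.11). Irgm1, a regulator of the same GTPases, was at 91.0, 144 and 191 CPM against 8.44, 33.4 and 63.3 CPM without overlap (1.79 ± 0.07). Tgtp1 (2.01 ± 0.13) and Tgtp2 (1.84 ± 0.10), which are near-identical copies, are uncertain individually. Many genes of this list also respond to type I interferon, and Cxcl9, Cxcl10, Ido1, Ciita and Gbp6 were too low to test. The motif was in 10 of 11 windows of the list (90.9%), among them Irgm1 (chr11:48871428-48871457, minus strand) with 2 overlapping matches, shown as 1 of the 3 genes of the list without overlap between groups.
Irgm1: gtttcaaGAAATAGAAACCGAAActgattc

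The machinery of MHC class I presentation was raised to a smaller degree, with 17 of 18 genes higher, a median log2 fold change of 0.49 and no gene without overlap. Nlrc5, the transactivator of MHC class I genes, was at 13.6, 43.3 and 56.1 CPM in members and 1.81, 20.3 and 31.0 CPM in comparators. Tap1, which pumps peptides into the endoplasmic reticulum, was at 93.8, 188 and 264 CPM against 48.8, 85.0 and 169 CPM. Every mouse was higher for both, and the log2 fold changes were 0.90 ± 0.06 and 0.79 ± 0.04. Tapbp, which encodes the peptide-loading factor tapasin, rose by 0.80 ± 0.03 and the nonclassical class I gene H2-T23 by 0.75 ± 0.03. H2-Q6 was not called. In this list 5 of 16 windows (31.2%) had the motif, including H2-T23 and B2m but not Tap1 or Tapbp.

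Of 6 Ly6 family genes, which encode small surface antigens, 5 rose. Ly6a (Sca-1) was at 14.5, 91.3 and 299 CPM in members and 0.834, 29.4 and 89.6 CPM in comparators. The spread between mice exceeded the difference, yet members were higher in 16 of 16 mice (log2 fold change 1.69 ± 0.05). Ly6c1 rose by 1.25 ± 0.12 and Ly6c2 by 0.56 ± 0.09, each higher in 14 mice, and Ly6e by 0.35 ± 0.03. Ly6d was not called.

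**Figure D4:**
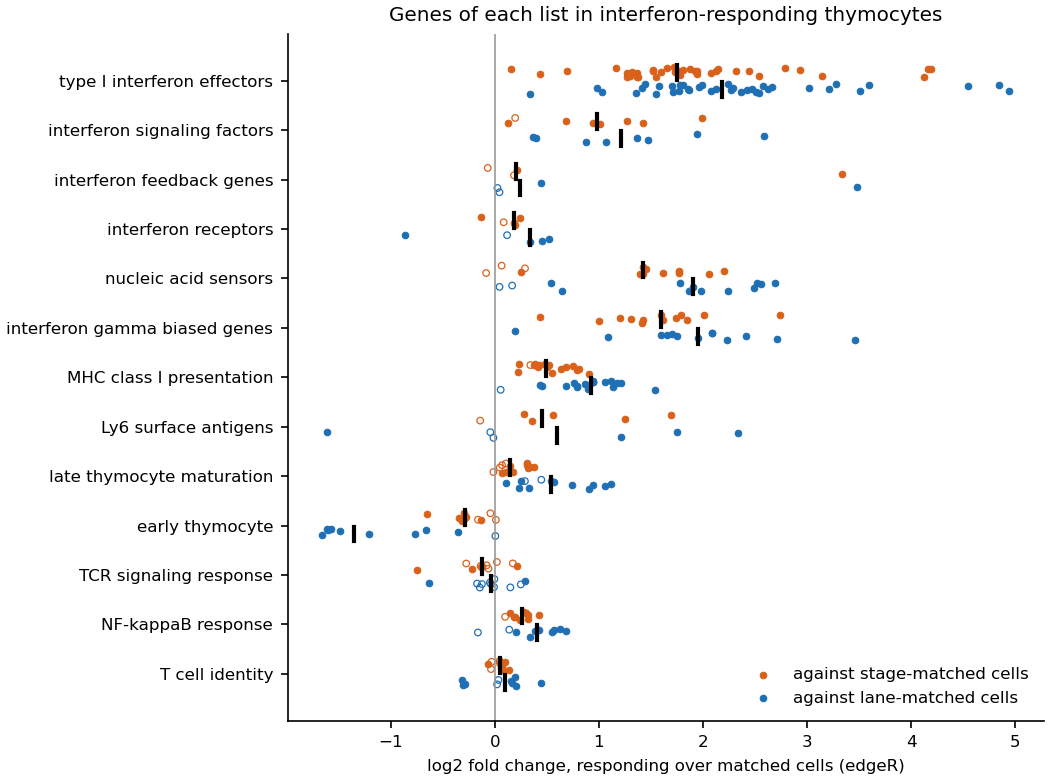
Log2 fold change of each tested gene of 13 lists in members over stage-matched (orange) and lane-matched (blue) cells, filled where called by edgeR at an adjusted p under 0.05; black bar, median of the list. Against stage-matched cells the effectors, sensors and gamma-biased genes have medians of 1.75, 1.43 and 1.60, MHC class I presentation 0.49, and early thymocyte genes -0.28.

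The same lists were followed mouse by mouse, as the median log2 ratio of the genes of a list in members over stage-matched cells with 1 CPM added. For the effectors it was 1.27 at the lowest, 1.74 at the median and 2.69 at the highest mouse, for the sensors 1.04, 1.46 and 1.91, and for the gamma-biased genes 1.11, 1.50 and 2.51. Signaling factors ran from 0.40 to 1.68 and MHC class I presentation from 0.35 to 0.85. All of these were above 0 in 16 of 16 mice. The receptors, by comparison, ran from -0.52 to 0.37 and were above 0 in 13 mice.

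Even among cells of the same cluster, late maturation genes were modestly higher and early genes lower in members, though not in every mouse. The median log2 ratio per mouse was above 0 in 15 of 16 mice for the late genes (-0.10 to 0.55) and in 5 of 16 for the early genes (-0.61 to 0.17). Of 13 late maturation genes 9 rose and none fell, with a median log2 fold change of 0.14. S1pr1, the receptor for thymic egress, rose by 0.31 ± 0.06 on the log2 scale, Itgb7, an integrin chain for gut homing, by 0.32 ± 0.04, and Dapl1 by 0.38 ± 0.09. The Dapl1 call was lost when members needed 2 or more Isg15 UMIs. Il7r, S100a4, S100a6 and S100a11 were not called.

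Of 10 early thymocyte genes, 7 fell and none rose, with a median log2 fold change of -0.28. Cd24a, a surface antigen lost during maturation, was at 15.5, 33.5 and 168 CPM in members and 23.2, 51.8 and 233 CPM in comparators. It was lower in members of 15 of 16 mice, with a log2 fold change of -0.65 ± 0.06. Ccr9, a chemokine receptor of immature thymocytes, fell by 0.32 ± 0.05, Dntt, the template-free DNA polymerase of V(D)J joining, by 0.30 ± 0.06, and Arpp21 by 0.34 ± 0.06. The number of falling genes was 4 with DESeq2 and also 4 with members of 2 or more Isg15 UMIs.

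Genes of the TCR response were mostly unchanged in call, with 3 lower and 1 higher of 11. Itm2a, a membrane protein induced in positive selection, was at 145, 291 and 643 CPM in members and 133, 478 and 1278 CPM in comparators. It was lower in 14 of 16 mice (log2 fold change -0.75 ± 0.06). Nab2, an EGR corepressor, fell by 0.22 ± 0.04, and Cd5, a negative regulator of TCR signaling, by 0.12 ± 0.03. Cd69, an activation antigen that also holds cells in the thymus by opposing S1PR1, rose by 0.21 ± 0.05 (higher in 14 mice), a call that was lost against comparators with none of the 3 rule genes and when the matching used 34 finer clusters in place of 20. The list gave 8 calls without the low-count filter and 7 with the finer clusters.

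Targets of NF-kappaB rose in 9 of 10 cases with a median log2 fold change of 0.26, all but Tnfaip3. Icam1, an adhesion molecule, rose by 0.42 ± 0.08 (15 of 16 mice), the signaling adaptor gene Traf1 by 0.32 ± 0.06 and Birc3, a ubiquitin ligase of the same pathway, by 0.30 ± 0.07. With the finer clusters, 4 of these genes were called. Of 10 T cell identity genes 5 were higher and 1 was lower, at a median of 0.05, for example Lck, the kinase of the coreceptors (0.10 ± 0.02). That list gave 2 calls without the low-count filter and also 2 when members needed 2 or more Isg15 UMIs.

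Markers of other cells were mostly too low to test. None of 2 tested B cell genes, 1 of 3 myeloid genes (Cd74) and 1 of 2 NK genes (Klrd1) were called. Cd74, the MHC class II invariant chain, was at 0, 23.8 and 47.1 CPM in members and 5.89, 16.5 and 31.0 CPM in comparators. It was higher in members of 11 of 16 mice (log2 fold change 0.62 ± 0.10), and its call was lost with DESeq2, as was that of Klrd1. The part that stray RNA of other cells plays in Cd74 was not tested. Pecam1 was higher (0.18 ± 0.04) and Epcam lower (-0.38 ± 0.12) among stromal genes.

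Outside all lists, 12 genes were taken as the largest rises seen in 16 of 16 mice. Slfn5, a Schlafen protein, was at 31.9, 103 and 200 CPM in members and 6.03, 19.5 and 37.1 CPM in comparators (log2 fold change 2.15 ± 0.07). Its relatives Slfn8 (1.79 ± 0.05) and Slfn1 (1.55 ± 0.05) rose too, Slfn8 without overlap. Ddx60, a helicase linked to RNA sensing, rose by 1.84 ± 0.07, Pml, the scaffold of nuclear bodies, by 1.44 ± 0.05, and the TRIM family gene Trim34a by 1.42 ± 0.06. Phf11c rose by 1.77 ± 0.07 without overlap, and the class I-like gene H2-T24 by 1.41 ± 0.07. BC094916 (1.85 ± 0.07), E130102H24Rik (1.50 ± 0.14), AW011738 (1.35 ± 0.08) and BC147527 (1.30 ± 0.06) completed the 12. The Slfn genes, Ddx60, Pml, Trim34a, Phf11c, H2-T24 and BC147527 were left out of the clustering as interferon-stimulated or MHC genes. Their place outside the lists therefore does not set them apart from the response on which members were chosen.

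Outside the lists, 8 genes were taken as the largest falls seen in 16 of 16 mice. Sox4, a transcription factor of early lymphocytes, was at 95.5, 195 and 295 CPM in members and 149, 250 and 344 CPM in comparators. Rrm2, the subunit of ribonucleotide reductase used in S phase, was at 32.3, 51.9 and 285 CPM against 41.5, 67.1 and 343 CPM. The ranges overlapped in both cases, and the log2 fold changes were -0.36 ± 0.03 and -0.53 ± 0.05. Etv5, an ETS family factor, fell by 0.67 ± 0.13, Hmgb3, a chromatin protein of proliferating cells, by 0.46 ± 0.06, and Marcks, a substrate of protein kinase C, by 0.39 ± 0.04. Shcbp1, Pgrmc1 and H2afz fell by 0.35 ± 0.08, 0.28 ± 0.05 and 0.27 ± 0.03.

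To place the members among all cells of their samples, they were also compared with lane-matched cells (4992 members, 21898 comparators). These came from the same lane and any cluster, with a total RNA count within 1.25-fold. Members stayed deeper at the median in some mice, for example 6963 against 6104 UMIs in WT mouse 1. Here 4218 of 9610 genes (43.9%) were called, of which 2052 (21.4% of those tested) were higher and 2166 (22.5%) lower. Effectors had a median log2 fold change of 2.18 with 38 of 38 higher, and signaling factors 1.21 with 8 of 8 higher. For 22 effectors the groups did not overlap, against 0.541% of all genes.

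Maturation genes moved further in this comparison. Of 13 late genes 11 were higher, with a median of 0.54. Klf2, the factor that controls egress genes, was at 98.5, 595 and 1122 CPM in members and 45.06, 333 and 873 CPM in lane-matched cells (log2 fold change 0.94 ± 0.11, 16 of 16 mice). S1pr1 rose by 1.06 ± 0.11 and Dapl1 by 1.12 ± 0.13.

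Of 10 early genes, 9 were lower in members than in lane-matched cells, with a median log2 fold change of -1.35. Rag1, the recombinase gene, was at 2.98, 21.6 and 399 CPM against 4.86, 73.6 and 1002 CPM. It was lower in 15 of 16 mice, with a log2 fold change of -1.66 ± 0.12. AND and F5 mice carry a Rag1 mutation, and the Rag1 reads they still have do not measure its function. Aqp11, a marker of quiescent DP cells, fell by 1.57 ± 0.11 and was lower in 16 of 16 mice. The histone gene Hist1h2ab fell by 1.80 ± 0.14. The interferon gamma receptor gene Ifngr1 fell by 0.87 ± 0.06 and Ly6d by 1.61 ± 0.17, each lower in 16 of 16 mice.

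Surface proteins offered a readout that the rule did not use. Antibody UMIs were compared in cells that also passed the protein filters (1000 to 10000 antibody UMIs and at least 70 antibodies detected), and levels are CPM of antibody UMIs. Against stage-matched cells (4515 members, 14853 comparators), 22 of 111 antibodies (19.8%) were called, with 16 (14.4%) higher and 6 (5.41%) lower, and no antibody was free of overlap between groups. On simulated antibody counts the share of false calls of this fit was above the threshold for the adjusted p. Without TMM scaling the counts were 8 and 10, and no called antibody changed direction.

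Integrin beta 7, the product of Itgb7, was at 2279, 11109 and 44557 CPM in members and 1874, 8401 and 34622 CPM in comparators. It was higher in 16 of 16 mice, with a log2 fold change of 0.36 ± 0.05. Sca-1 (antibody Ly-6A-E) was at 2403, 9294 and 28271 CPM against 2214, 7223 and 21932 CPM (0.31 ± 0.07, 14 of 16 mice). The RNA and the protein of Ly6a thus moved in the same direction, with a smaller ratio for the protein. The integrin CD103 rose by 0.20 ± 0.04 in 14 mice. CD86, a costimulatory ligand, rose by 0.26 ± 0.04 in 14 mice, and CD43, a sialoglycoprotein of T cells, by 0.12 ± 0.02 in 16 of 16.

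Lower in members were CD28, the costimulatory receptor (-0.34 ± 0.06, lower in 13 of 16 mice), CD24 (-0.26 ± 0.06, lower in 15) and the adhesion molecule CD102 (-0.15 ± 0.04, lower in 14). CD24 was at 1675, 6950 and 37521 CPM in members and 1689, 9300 and 38293 CPM in comparators, so its median fell while its range hardly moved. The interferon-inducible ligand CD274 (PD-L1) had a log2 fold change of 0.15 ± 0.05, NK-1.1 of 0.17 ± 0.03, GITR (CD357) of 0.13 ± 0.04 and the complement receptors CD21-CD35 of 0.13 ± 0.03. The calls of CD274, GITR and CD21-CD35 were lost under several alternatives. Ly-6C (0.10, adjusted p = 0.158), TCRβ (0.09, adjusted p = 0.122), CD4 (-0.07, adjusted p = 0.554), CD69 (-0.06, adjusted p = 0.447) and CD8a (-0.03, adjusted p = 0.757) were not called by edgeR.

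The number of called antibodies depended on single mice. It ranged from 9 to 26 when 1 mouse was left out, and was 9 without WT mouse 1, 13 without AND mouse 2, either MHCII-/- mouse, OT-I mouse 1 or WT mouse 4, and 14 without AND mouse 1, OT-I mouse 2 or WT mouse 2.

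**Figure D5:**
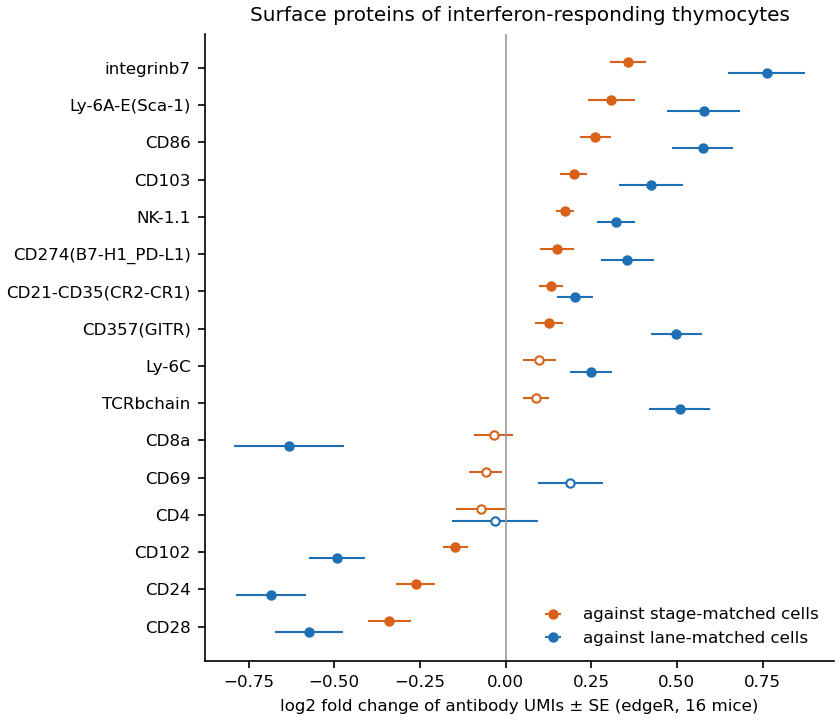
Log2 fold change ± SE (edgeR) of named antibodies in members over stage-matched cells and over lane-matched cells, over 16 mice, filled where called at an adjusted p under 0.05. Integrin beta 7 and Sca-1 are higher and CD28 and CD24 lower in both comparisons, and CD4 is called in neither.

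Against lane-matched cells, 50 of 111 antibodies (45%) were called, with 33 (29.7%) higher and 17 (15.3%) lower, or 19 higher and 37 lower without TMM scaling. An unadjusted p under 0.05 was reached by 51 antibodies (45.9%). TCRβ was higher in 16 of 16 mice (log2 fold change 0.51 ± 0.09), as was the IL-7 receptor chain CD127 (0.33 ± 0.06). The coreceptor chains CD8a (-0.63 ± 0.16) and CD8b (-0.74 ± 0.17), which DP cells carry, were lower. CD304 (neuropilin-1) fell by 0.80 ± 0.10 and CD24 by 0.68 ± 0.10. CD4 (-0.03, adjusted p = 0.859) and CD69 (0.19, adjusted p = 0.124) were not called by edgeR.

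Finally, the response of members over stage-matched cells was compared between lineages with an interaction term, in 6 CD4-fated and 5 CD8-fated mice. Of 9280 genes, 0 were called by edgeR or by DESeq2, and 419 (4.52%) had an unadjusted p under 0.05. On simulated counts this fit missed most small interactions, so only large differences were detectable. Per mouse, the median log2 ratio of effectors was 1.86 ± 0.25 in CD4-fated (SD, n = 6, range 1.54 to 2.24), 1.88 ± 0.51 in CD8-fated (SD, n = 5, range 1.44 to 2.69) and 1.53 ± 0.24 in WT mice (SD, n = 5, range 1.27 to 1.86). The 3 ranges overlapped.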

How the data were processed

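The authors deposited counts, that is UMIs per gene and per antibody for each barcode of the 19 lanes, without normalization. Per the labels and the study's methods, reads had been processed with Cell Ranger 3.1.0 against mm10 (GRCm38), with cDNA from the 10x 3' kit and 111 TotalSeq-A antibodies. Pooled matrices that repeat the counts of several lanes were not used. The members, gene lists and comparisons were chosen with earlier results of these data known.

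Lanes were assigned to mice by their labels, and UMIs of both lanes of a mouse were summed. Of 85389 barcodes, 79569 passed the RNA filters and 72054 also the protein filters. Cells were clustered with scanpy 1.11.5 and leidenalg 0.10.2 (2000 variable genes, interferon-stimulated, MHC, TCR, ribosomal and mitochondrial genes left out, 30 principal components corrected for lane group, 20 neighbors). Lane groups were the experiments, with the third experiment split by the lane numbers in its labels. Resolution 1 (20 clusters) served the matching. Class names came from resolution 2 (34 clusters, of which 8 stayed unnamed), a choice made after seeing the data. Doublets were scored per lane at 0.8% per 1000 barcodes and kept in the main analysis.

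UMIs summed per mouse were tested with edgeR 4.0.16 in R 4.3.3 (quasi-likelihood test, TMM scaling, its low-count filter, mouse as block, Benjamini-Hochberg adjustment at 0.05), leaving out the 5 rule genes and mice with fewer than 10 members. SEs were back-calculated from the F statistic. Printed CPM were scaled by TMM, except those of rule genes, marker sums, B2m and H2-Ab1. Shares were compared by exact permutation of mice or of the sign within mice. Beyond the experiment, the only further label of origin of same-group mice is the lane number in the third experiment. It sets WT mouse 4, OT-I mouse 1 and OT-II mouse 1 apart from WT mouse 5, OT-I mouse 2 and OT-II mouse 2. The p-values measure the spread between the mice tested, and limits on single cells cover counting error only. The RNA and antibody fits were tested on simulated counts.

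Genes were named by rule: the 4 largest changes among called genes of each list, outside the lists the 12 largest rises and 8 largest falls seen in every mouse at 10 CPM or more in the higher group, and up to 12 called antibodies plus CD4, CD8a, CD24, CD69, TCRβ, Sca-1 and Ly-6C. Genes of a list that were not called or not tested, CD43, CD127, CD304 and CD8b were named in addition after their values were seen. Some genes and proteins that these rules take are not reported here. Alternatives were DESeq2 1.42.0, no low-count filter, comparators without rule-gene UMIs, doublets left out, members with 2 or more Isg15 UMIs, finer clusters, other thinning depths, another seed and leaving out each mouse. Leaving out the first experiment or the F5 mice, including Treg-like cells, permuting lineages within experiments and the other seed were added after seeing the data.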

Additional observations from a re-analysis of the deposited data

Results flagged for a closer look

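Among 36 checks of per-mouse medians of gene lists for a mouse far from its group, 2 marked F5 mouse 2 among the 5 CD8-fated mice. Its median log2 ratio of members over stage-matched cells was -0.521 for the interferon receptors, below the others, and 0.849 for MHC class I presentation, above the others. This mouse had 27 members, the fewest of the mice tested, and the share of these values that comes from so few cells was not tested. Chance marks about 1 in 20 groups.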

How the results depend on the processing

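The comparison of stage-matched RNA gave 2051 called genes, 1601 with DESeq2 (1574 of them shared) and 1363 when members needed 2 or more Isg15 UMIs. Stage-matched antibodies gave 22 calls, 9 without the protein filters and 10 with 2 or more Isg15 UMIs. The interaction of lineage gave 0 calls, 18 without the low-count filter and 1 without the F5 mice. The lineage difference in member share stayed at 1.79 percentage points with the replicate block, where its exact permutation p was 0.03125 against 0.177, with the CD4-fated mouse higher in 6 of 6 pairs. The replicate numbers were not taken as pairs, since deviations of same-numbered mice correlated at -0.241 (AND with F5), 0.956 (OT-II with OT-I) and 0.525 (MHCI-/- with MHCII-/-) over 3039 genes.

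Leaving out each mouse in turn gave 1644 to 2101 calls for stage-matched RNA, 3854 to 4292 for lane-matched RNA, 9 to 26 and 44 to 52 for stage-matched and lane-matched antibodies and 0 to 1 for the interaction. The differences in share ran from 4.60 to 5.42 (mature SP-like), 0.953 to 2.33 (lineage, p 0.0866 to 0.342) and 3.60 to 4.90 percentage points (effector UMIs). The uncalled log2 fold change of the CD8a antibody against stage-matched cells ran from -0.103 to 0.0112, its sign turning without MHCI-/- mouse 2, and that of CD4 against lane-matched cells from -0.149 to 0.0569, turning without MHCII-/- mouse 1 or 2. The cause of these changes was not tested. Of the single genes and antibodies that the naming rules take, 2856 values with a mouse left out kept their call and direction, 68 lost the call and 3 changed direction. In the other alternatives 821 values kept both and 41 lost the call. At a median lane depth of 21266764 UMIs, all 11 listed interferon genes and 4 of 17 nucleic acid sensors did not pass the low-count filter of the stage-matched comparison.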
